A study of Homo sapiens with 14 samples.

Results

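The insulin-like growth factor (IGF) pathway of human cartilage pellets was followed through 10 genes: the ligand IGF1, the receptor IGF1R, the binding proteins IGFBP2, IGFBP3, IGFBP4, IGFBP5, IGFBP6 and IGFBP7, and the pappalysins PAPPA and PAPPA2. The genes were chosen by symbol, and all 10 were found among the 60587 genes of each library. The pellets were made from WA01 human embryonic stem cells, the established line also called H1, and were cultured in medium that supports cartilage formation. Bulk RNA-seq of whole pellets gave 4 libraries at day 21, 5 at day 30 and 5 at day 45. All libraries come from 1 line with no other treatment. The labels do not say whether replicates were separate cultures, so the p-values below reflect the variation among these libraries, which may be technical.

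IGF ligands bind IGF1R, a receptor tyrosine kinase that signals through IRS adapters to PI3K, AKT and mTOR. Outside the cell most IGF is held by binding proteins of the IGFBP family, which can block the receptor or keep a local store of ligand. Pappalysins are secreted metalloproteases that cut particular binding proteins and so free the ligand. In the growth plate this pathway is known for driving chondrocyte proliferation and enlargement and thereby bone length.

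The makeup of the binding protein transcripts changed as the pellets aged, and both pappalysins changed. Between day 21 and day 45, IGFBP2, IGFBP5, IGF1 and PAPPA2 fell, while IGFBP3, IGFBP6, PAPPA and IGF1R rose. IGFBP7 also rose, by a smaller amount that depended on single libraries. IGFBP4 did not pass the test between day 45 and day 21, and had its low point at day 30, where PAPPA was lowest too. In TPM, which allows for transcript length, the most abundant binding protein transcript was IGFBP2 at days 21 and 30 and IGFBP7 at day 45. The summed TPM of the 6 binding proteins averaged 1270, 758 and 514 at days 21, 30 and 45. IGFBP7 itself did not pass on that scale for day 45 against day 21 (log2 fold change -0.03, adjusted p = 0.852 by limma on log2 of TPM plus 1).

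The total per library was 18183776 to 33660704 expected counts. COL2A1, the main collagen of cartilage, took a share of the counts of 3.48 to 4.21% (day 21), 7.26 to 14.6% (day 30) and 12 to 17.8% (day 45). All 10 listed chondrocyte markers passed the filter on low counts, and their summed level in CPM, the expected count scaled to library size with TMM (trimmed mean) factors, was 39100 to 50600 (day 21), 92300 to 225000 (day 30) and 190000 to 302000 (day 45). Of these, 7 rose for day 45 against day 21, CNMD fell by 0.91 ± 0.16 on the log2 scale (adjusted p = 1.15e-04), and SOX5 and SOX6 did not pass. Over all genes 27.1% were called higher and 30.5% lower. COL2A1 makes up most of the sum. Day 30 replicates 3 to 5 stood apart: the rank correlation of a gene's deviation with its effective length was -0.43, -0.52 and -0.47 in them, against -0.03 and -0.09 in day 30 replicates 1 and 2, and 0.1 to 0.26 in the libraries of the other days. Long transcripts therefore read low in those libraries, and the change for day 30 against day 21 is given with and without them for each of the 10 genes. The library titled day 45 replicate 1 carries a treatment label of 30 days. It was kept at day 45 by its title, and calls of the 10 genes that were lost with it placed at day 30 are named beside the result.

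**Figure D1:**
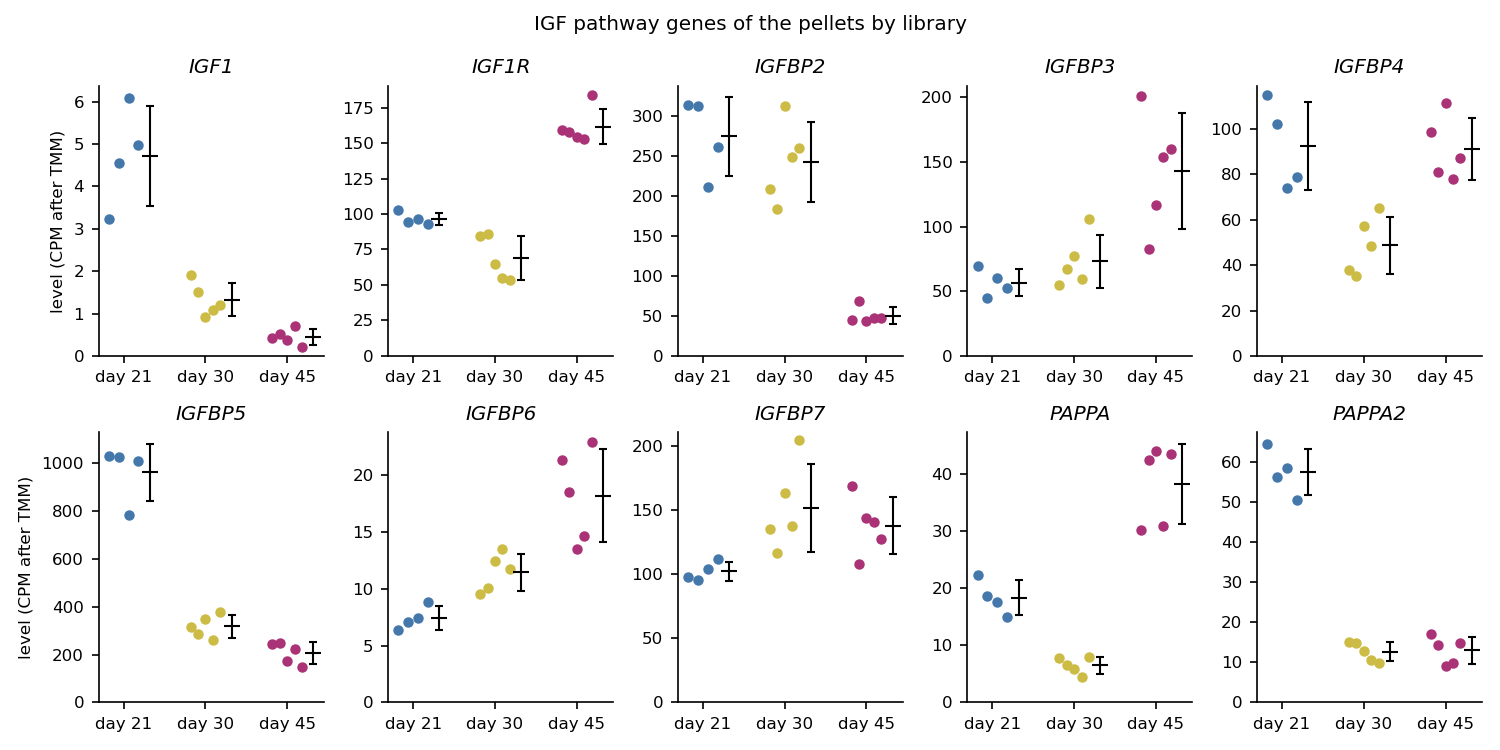
Level of each of the 10 genes in each library, in CPM after TMM scaling, for day 21, day 30 and day 45; bars give the mean and SD. IGF1, IGFBP2 and IGFBP5 were lowest at day 45, PAPPA and IGFBP4 dipped at day 30, and PAPPA2 was high at day 21 alone.

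The ligand IGF1 (ENSG00000017427, chr12:102395874-102481744, minus strand, in GRCh38 with GENCODE 29, which gave every gene position here) was a minor transcript that was lower at each later day. Its level was 3.22, 4.56, 6.08 and 4.99 CPM at day 21. At day 30 it was 1.91, 1.52, 0.926, 1.09 and 1.19 CPM, and at day 45 it was 0.432, 0.525, 0.367, 0.699 and 0.206 CPM. The 3 days did not overlap. IGF1 was 10.5-fold lower at day 45 than at day 21, a log2 fold change of -3.39 ± 0.29 (SE; adjusted p = 2.89e-08, edgeR quasi-likelihood test with Benjamini-Hochberg adjustment, used for every adjusted p here unless another tool is named). By step, the log2 fold change was -1.82 ± 0.26 for day 30 against day 21 (adjusted p = 2.01e-05) and -1.57 ± 0.30 for day 45 against day 30 (adjusted p = 3.15e-04). The first was -1.45 without day 30 replicates 3 to 5 (adjusted p = 0.00242), and the second lost its call on the TPM scale (-0.29, adjusted p = 0.103 by limma on log2 of TPM plus 1). With 0.1 in place of 1 added to the TPM, the second kept its direction and call. IGF1 was at 0.1 to 0.41 TPM at day 45, below the 1 that was added. At day 45 these levels rest on only 4.97 to 16.9 expected counts a library. The exons of IGF1 overlap HELLPAR, a long noncoding RNA on the other strand that had 1.03 to 38.3 counts, and the library kit does not mark strand, so the smallest IGF1 values are uncertain.

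The related ligand IGF2, which is no member of the set and is abundant in fetal tissue, moved the other way. It averaged 1681 ± 190 CPM at day 21 (SD, n = 4), 3759 ± 515 CPM at day 30 and 5735 ± 1140 CPM at day 45 (SD, n = 5 each). Its log2 fold change for day 45 against day 21 was 1.77 ± 0.16 (adjusted p = 5.03e-08). In TPM the ratio of IGF2 to IGF1 was 243 ± 44.5 at day 21, 3610 ± 1900 at day 30 and 12600 ± 6300 at day 45. The IGF1 TPM in that ratio also depends on which isoform was assigned, since its effective length ran between 1939 and 7067 bases over the libraries and the annotated transcripts include forms of 7359 and 1097 bases.

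IGF1R, the receptor for both ligands (ENSG00000140443, chr15:98648539-98964530, plus strand), was highest at day 45. Its level was 103, 94.4, 96.3 and 93 CPM at day 21, then 84.4, 85.7, 64.8, 55.2 and 53.6 CPM at day 30, and 159, 158, 154.5, 153 and 184 CPM at day 45. No library of one day overlapped those of another. IGF1R had a log2 fold change of 0.74 ± 0.13 for day 45 against day 21 (adjusted p = 1.10e-04), and for day 45 against day 30 it was 1.23 ± 0.12 (adjusted p = 6.18e-07). For day 30 against day 21 it was -0.49 ± 0.13 (adjusted p = 0.00409), but this fall rests on the libraries that read long transcripts low: without day 30 replicates 3 to 5 it was -0.19 (adjusted p = 0.121), with day 45 replicate 1 placed at day 30 it was -0.20 (adjusted p = 0.509), and with an offset for effective length it was 0.28 (adjusted p = 0.00902). The 2 day 30 libraries that did not stand apart held 84.4 and 85.7 CPM. IGF1R has the longest effective length of the 10 genes, 11063 bases on average.

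IGF2R, which takes IGF2 into lysosomes, had a log2 fold change of 0.62 ± 0.19 for day 45 against day 21 (adjusted p = 0.00855), a call lost on the TPM scale (0.06, adjusted p = 0.773 by limma). INSR, the insulin receptor, rose by 1.64 ± 0.16 (adjusted p = 1.05e-07). The ratio of INSR to IGF1R in TPM was 0.543 ± 0.126 at day 21, 0.894 ± 0.172 at day 30 and 1.01 ± 0.245 at day 45. IGF1R thus had the higher TPM of the pair in each day 21 library, where the ratio was at most 0.678. At day 45 IGF1R was still the higher in replicates 1 to 4. Replicate 5, with INSR at 37.03 and IGF1R at 25.65 TPM, had the highest ratio, 1.44, and raised the mean. INSR had its shortest effective length, 5021 bases, in that library. The INSR TPM also depends on the isoform assigned, since its effective length ran between 5021 and 8646 bases over the libraries. The day 30 ratio includes replicates 3 to 5, where long transcripts such as that of IGF1R read low. IGFBP1, the remaining classic binding protein, had at most 3 counts in any library and was not tested.

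Of the 10 genes, 9 passed the test for day 45 against day 21 (5 higher and 4 lower), where 57.7% of the 17838 genes tested did so, 27.1% higher and 30.5% lower. For day 30 against day 21, 8 passed (2 higher and 6 lower), against 54.4% of all genes, 27.2% higher and 27.1% lower. For day 45 against day 30, 8 passed (5 higher and 3 lower), against 56.3%, 27.6% higher and 28.7% lower. The later change differed from the earlier one for 7 of the 10 (5 higher and 2 lower), against 52.7% of all genes, 25.3% higher and 27.5% lower. The later interval is longer than the earlier one, so this contrast compares changes per interval and not per day. With most genes called in each comparison, counts of this kind are not particular to the pathway. The median log2 fold change of the 10 was 0.21 for day 45 against day 21, -0.71 for day 30 against day 21 and 0.35 for day 45 against day 30, beside medians over all genes of -0.05, 0.02 and -0.04. On the TPM scale, 2140 genes were called higher and 8720 lower for day 45 against day 21, and 1788 higher and 9032 lower for day 30 against day 21 (limma on log2 of TPM plus 1). That scale lowered the median of all genes to -0.34 and -0.35, and by it 4 of the 10 genes rose and 5 fell for day 45 against day 21. Without day 30 replicates 3 to 5, 5 of the 10 passed for day 30 against day 21, all lower, beside 27.1% of all genes called lower with all libraries. The median of the 10 without those replicates was -0.92, beside -0.02 over all genes.

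**Figure D2:**
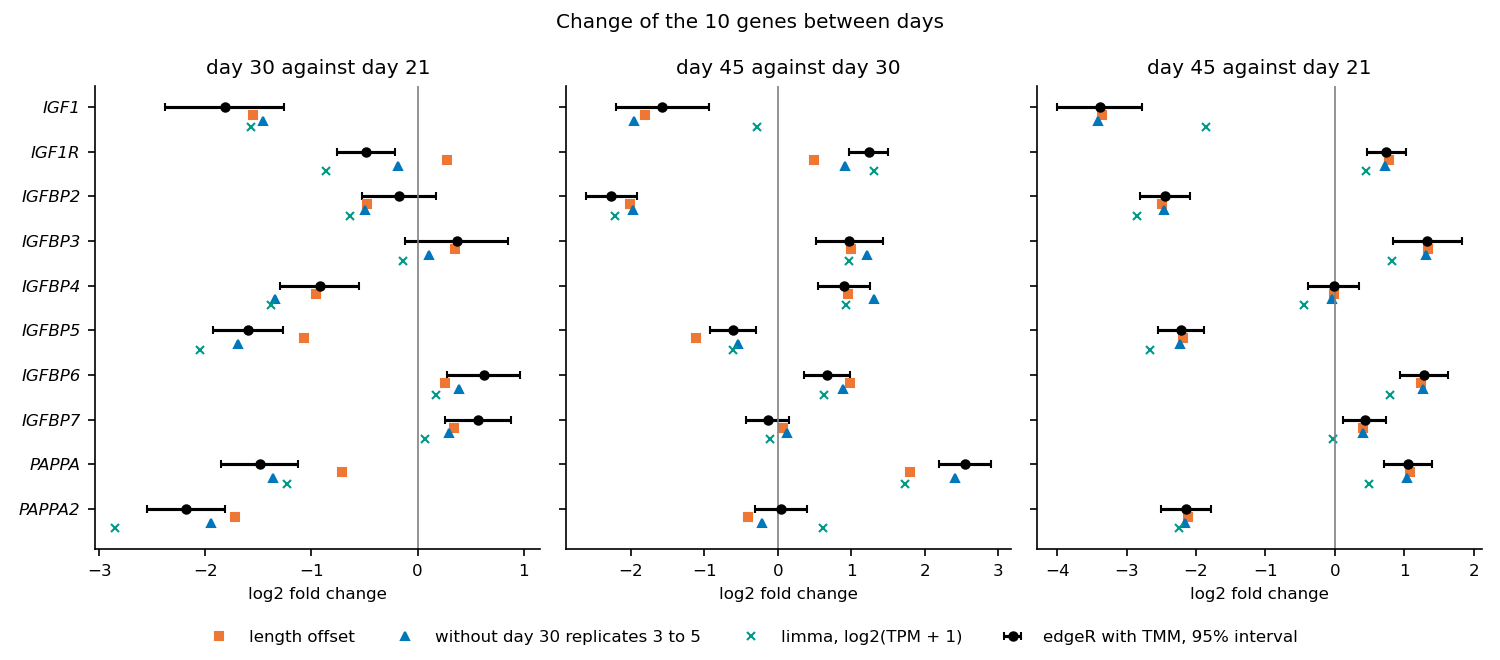
Log2 fold change of the 10 genes for day 30 against day 21, day 45 against day 30 and day 45 against day 21; black points and bars are the edgeR estimate with its 95% interval, and the other marks are the same change with a length offset, without day 30 replicates 3 to 5, or by limma on log2(TPM + 1). The marks for IGF1R in day 30 against day 21 lie on both sides of 0, while those of IGFBP5, PAPPA and PAPPA2 all lie below it.

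Among the binding proteins, IGFBP5 and IGFBP2 fell most, at different times. IGFBP5, which binds matrix and is cut by both pappalysins, had 1029, 1023, 783 and 1009 CPM at day 21. It had 314, 284, 349, 261 and 378 CPM at day 30 and 245, 249, 173, 222 and 147 CPM at day 45. The fall was early: -1.60 ± 0.16 on the log2 scale for day 30 against day 21 (adjusted p = 2.91e-07), and -0.62 ± 0.15 for day 45 against day 30 (adjusted p = 0.0021). IGFBP5 was 4.64-fold lower at day 45 than at day 21 (adjusted p = 2.97e-09). The later change minus the earlier one was 0.98 ± 0.27 (adjusted p = 0.00515), but -0.04 with the length offset (adjusted p = 0.921). The difference between the intervals thus depends on how transcript length is treated. The fall itself does not, with -1.07 for day 30 against day 21 under the offset (adjusted p = 1.53e-04) and -1.69 without day 30 replicates 3 to 5 (adjusted p = 1.90e-05).

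IGFBP2, an IGF carrier that also binds integrins, fell late. It had 314, 312.3, 211 and 261 CPM at day 21, 208, 184, 312.5, 249 and 260.3 CPM at day 30, and 45.3, 68.6, 44.0, 47.8 and 46.9 CPM at day 45. The libraries of days 30 and 21 overlapped, and all day 45 libraries lay below both. IGFBP2 had a log2 fold change of -2.27 ± 0.16 for day 45 against day 30 (adjusted p = 2.12e-08) and -0.18 ± 0.16 for day 30 against day 21 (95% interval -0.52 to 0.17; adjusted p = 0.376). The later change minus the earlier one was -2.09 ± 0.27 (adjusted p = 1e-05). The early value moved with scale, to -0.48 with the length offset (adjusted p = 0.00769) and -0.63 on the TPM scale (adjusted p = 0.00163 by limma), and was -0.49 without day 30 replicates 3 to 5 (adjusted p = 0.05). IGFBP2 (ENSG00000115457) and IGFBP5 (ENSG00000115461) are neighbours, at chr2:216632828-216664436 on the plus strand and chr2:216672105-216695525 on the minus strand, with 7668 bases between their 3′ ends. The pair shared a direction between days 21 and 45 and not the timing.

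IGFBP3, the main carrier of IGF in serum (ENSG00000146674, chr7:45912245-45921874, minus strand), was highest at day 45. It had 69.3, 45.1, 59.97 and 52.4 CPM at day 21, 54.7, 67.6, 77.4, 59.3 and 106 CPM at day 30, and 201, 83.0, 117, 154 and 160.4 CPM at day 45. The day 45 libraries spread widely, and the lowest of them lay below the highest at day 30. IGFBP3 had a log2 fold change of 1.33 ± 0.23 for day 45 against day 21 (adjusted p = 1.23e-04) and 0.97 ± 0.22 for day 45 against day 30 (adjusted p = 0.00125). With day 45 replicate 1, the highest library, placed at day 30 as its treatment label reads, the later change was 0.44 (adjusted p = 0.275). The earlier change was 0.37 ± 0.23 (95% interval -0.12 to 0.85; adjusted p = 0.186), and 0.10 without day 30 replicates 3 to 5 (adjusted p = 0.813). The later change minus the earlier one was 0.60 ± 0.38 (adjusted p = 0.198), so a difference between the intervals was not shown.

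IGFBP6, which prefers IGF2 over IGF1 (ENSG00000167779, chr12:53097436-53102345, plus strand), rose at both steps from a low level. It had 6.42, 7.07, 7.42 and 8.87 CPM at day 21, 9.53, 10.1, 12.5, 13.5 and 11.7 CPM at day 30, and 21.4, 18.5, 13.5, 14.7 and 23.0 CPM at day 45. Every day 45 library exceeded every day 21 library, while days 45 and 30 overlapped at their edges. Its log2 fold change for day 45 against day 21 was 1.29 ± 0.16 (adjusted p = 3e-06), with 0.62 ± 0.16 for day 30 against day 21 (adjusted p = 0.00391) and 0.67 ± 0.15 for day 45 against day 30 (adjusted p = 0.00128). The first step lost its call without day 30 replicates 3 to 5 (0.39, adjusted p = 0.14), with the length offset (0.26, adjusted p = 0.164) and on the TPM scale (0.17, adjusted p = 0.304 by limma). The second lost its call with day 45 replicate 1 placed at day 30 (0.41, adjusted p = 0.132).

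IGFBP7, a relative of the family with weak affinity for IGF (ENSG00000163453, chr4:57030773-57110385, minus strand), changed least among those called. It had 97.6, 95.4, 104 and 112 CPM at day 21, 135, 117, 164, 138 and 205 CPM at day 30, and 169, 108, 144, 141 and 127 CPM at day 45. Days 45 and 21 overlapped. IGFBP7 had a log2 fold change of 0.43 ± 0.15 for day 45 against day 21 (adjusted p = 0.019) and 0.57 ± 0.15 for day 30 against day 21 (adjusted p = 0.00373). Between day 45 and day 30 it was -0.14 ± 0.14 (95% interval -0.43 to 0.15; adjusted p = 0.41). The call for day 45 against day 21 is lost without day 21 replicate 2 (0.40, adjusted p = 0.0555) or day 45 replicate 1 (0.35, adjusted p = 0.0564) or with the second of these placed at day 30 (adjusted p = 0.0753), and on the TPM scale the change was -0.03 (adjusted p = 0.852 by limma). The rise at day 30 was 0.29 without day 30 replicates 3 to 5 (adjusted p = 0.099). Exons of IGFBP7 overlap POLR2B on the other strand, which had 1498 to 4195 counts a library beside at least 2078 for IGFBP7, so some reads cannot be told apart.

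IGFBP4, which holds IGF away from the receptor until PAPPA cuts it (ENSG00000141753, chr17:40443461-40457731, plus strand), was lowest at day 30. It had 115, 102, 73.9 and 78.6 CPM at day 21, 37.9, 35.3, 57.1, 48.2 and 65.2 CPM at day 30, and 98.6, 81.1, 111, 77.7 and 87.1 CPM at day 45. All day 30 libraries lay below all others. The log2 fold change was -0.92 ± 0.18 for day 30 against day 21 (adjusted p = 3.25e-04) and 0.90 ± 0.17 for day 45 against day 30 (adjusted p = 2.67e-04), and both kept their direction and call without day 30 replicates 3 to 5, at -1.34 (adjusted p = 7.04e-05) and 1.31 (adjusted p = 1.31e-04). For day 45 against day 21 it was -0.02 ± 0.18 (95% interval -0.39 to 0.35; adjusted p = 0.935), and -0.45 on the TPM scale (adjusted p = 0.0132 by limma).

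Set per transcript length, the 6 binding proteins were reordered. Of their summed TPM, IGFBP2 took 46.9 ± 3.13% at day 21, 50.7 ± 4.02% at day 30 and 16.2 ± 4.38% at day 45 (SD, n = 4, 5 and 5). IGFBP5 took 25.7 ± 1.14%, 10.4 ± 1.4% and 10.1 ± 2.29% at the same days, and IGFBP7 took 13.9 ± 2.48%, 24.3 ± 2.46% and 33.2 ± 2.9%. These shares place IGFBP2 and IGFBP5 first at day 21, IGFBP2 and IGFBP7 first at day 30, and IGFBP7 first at day 45, followed by IGFBP3 with 19.7 ± 4.69%, IGFBP2, IGFBP4 with 13.4 ± 2.13% and IGFBP5. At day 45 the library ranges of neighbours in this order overlapped from IGFBP3 down, and IGFBP7, at 29 to 36.5%, lay above IGFBP3, at 12.9 to 23.9%. IGFBP6 was last at each day, with 1.67 ± 0.287% at day 21 and 7.34 ± 1.54% at day 45. The ratio of IGFBP5 to IGFBP3 was 6.03 ± 1.48 at day 21, 1.58 ± 0.272 at day 30 and 0.559 ± 0.28 at day 45.

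**Figure D3:**
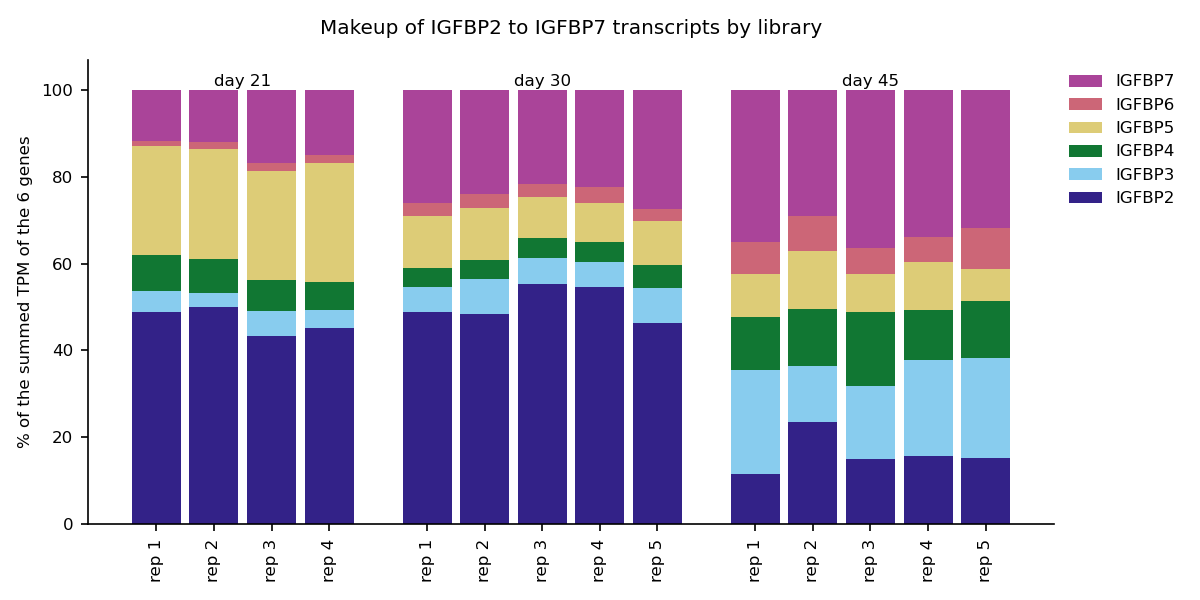
Share of each gene in the summed TPM of IGFBP2 to IGFBP7, in percent, for each library at day 21, day 30 and day 45. IGFBP2 makes up 43.4 to 50.1% at day 21 and 11.6 to 23.4% at day 45, and IGFBP7 11.7 to 16.9% and 29 to 36.5%.

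The summed TPM of the 6 genes was 1270 ± 113 at day 21, 758 ± 98.5 at day 30 and 514 ± 40.6 at day 45, on a scale where the median of all genes also fell. A ratio within the library does not move with that scale: IGF2 per summed IGFBP2 to IGFBP6 was 0.744 ± 0.0622 at day 21, 2.32 ± 0.487 at day 30 and 5.95 ± 1.03 at day 45. The lowest library at day 45 had 5.06 IGF2 transcripts for each of those binding protein transcripts, and the highest at day 21 had 0.834. These are transcripts in whole pellets, and fewer cells of a type cannot be told apart from less RNA per cell.

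Both pappalysins fell for day 30 against day 21, and PAPPA alone rose after that. PAPPA (ENSG00000182752, chr9:116153804-116402322, plus strand), which cuts IGFBP4 when IGF is bound and also cuts IGFBP5 and IGFBP2, had 22.2, 18.6, 17.6 and 14.96 CPM at day 21. It had 7.77, 6.46, 5.93, 4.41 and 7.96 CPM at day 30, and 30.3, 42.4, 44.0, 30.8 and 43.5 CPM at day 45. The 3 days did not overlap, with day 30 lowest and day 45 highest. The log2 fold change was -1.49 ± 0.17 for day 30 against day 21 (adjusted p = 1.73e-06), 2.55 ± 0.17 for day 45 against day 30 (adjusted p = 8.44e-09) and 1.06 ± 0.17 for day 45 against day 21 (adjusted p = 3.33e-05). The later change minus the earlier one, 4.03 ± 0.31, was the largest of the 10 genes (adjusted p = 7.41e-08). PAPPA has a long transcript, of 10959 bases, and the dip was smaller with the length offset, -0.72 (adjusted p = 0.00211), but it was -1.37 without day 30 replicates 3 to 5 (adjusted p = 8.90e-05). In day 30 replicates 1 and 2, where length mattered little, PAPPA was at 7.77 and 6.46 CPM, below the day 21 minimum of 14.96 CPM. With day 45 replicate 1 placed at day 30 the early change was -0.80 (adjusted p = 0.122).

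PAPPA2, which cuts IGFBP3 and IGFBP5 and whose loss in humans reduces growth (ENSG00000116183, chr1:176463171-176845605, plus strand), was high at day 21 alone. It had 64.6, 56.3, 58.5 and 50.7 CPM at day 21, 15.2, 14.9, 12.9, 10.6 and 9.92 CPM at day 30, and 17, 14.4, 9.03, 9.87 and 14.9 CPM at day 45. Every later library, at 17 CPM or less, was far below the lowest at day 21, and days 45 and 30 overlapped. The log2 fold change was -2.18 ± 0.17 for day 30 against day 21 (adjusted p = 2.84e-08) and -2.14 ± 0.17 for day 45 against day 21 (adjusted p = 1.30e-08), with -1.94 at the first step without day 30 replicates 3 to 5 (adjusted p = 1.41e-05). For day 45 against day 30 it was 0.04 ± 0.17 (95% interval -0.31 to 0.39; adjusted p = 0.857), and it took either sign with the setting, from -0.40 with the length offset (adjusted p = 0.0293) to 0.61 on the TPM scale (adjusted p = 0.0321 by limma). The TPM of PAPPA2 also depends on the isoform assigned: its effective length ran between 4474 and 5650 bases at day 21, 5651 and 8657 at day 30, and 3182 and 5540 at day 45, and the annotation holds coding transcripts of 9691 and 4369 bases. In TPM, PAPPA per PAPPA2 was 0.142 ± 0.0147 at day 21, 0.374 ± 0.155 at day 30 and 1.31 ± 0.502 at day 45.

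PAPPA and its substrate IGFBP4 were both lowest at day 30, and PAPPA2 and its substrate IGFBP5 were both highest at day 21. The starts of these 4 genes are shown for that reason, a choice made after their values were seen. Each line gives the 100 bases before the transcription start, on the gene's strand, from the RefSeq promoter table (GRCh38.p14), at chr9:116153691-116153790 plus for PAPPA, chr17:40443350-40443449 plus for IGFBP4, chr1:176463075-176463174 plus for PAPPA2 and chr2:216695550-216695649 minus for IGFBP5. Capitals mark TATAAA and GGGCGG, read on either strand, so that a GGGCGG on the other strand appears as CCGCCC.
PAPPA: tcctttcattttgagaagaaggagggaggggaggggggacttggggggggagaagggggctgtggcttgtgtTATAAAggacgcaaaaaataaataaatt
IGFBP4: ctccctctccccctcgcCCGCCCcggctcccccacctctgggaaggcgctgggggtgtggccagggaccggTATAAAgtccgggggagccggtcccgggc
PAPPA2: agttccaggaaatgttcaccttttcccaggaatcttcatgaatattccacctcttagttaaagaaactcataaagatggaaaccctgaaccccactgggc
IGFBP5: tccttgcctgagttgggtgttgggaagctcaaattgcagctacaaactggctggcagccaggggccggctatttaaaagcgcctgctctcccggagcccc

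PAPPA and IGFBP4 hold TATAAA with its first base at -28 and -29 from the start, and the windows of PAPPA2 and IGFBP5 hold neither motif. Of the 10 genes, 9 had a window of 250 bases before and 50 from the start on, in 12 windows in all, and TATAAA was found for PAPPA and IGFBP4 alone. Over all 35116 windows of the table, 11.5% hold TATAAA and 45.0% hold GGGCGG. The windows with GGGCGG were those of IGF1R, IGFBP2, IGFBP3, IGFBP4 and IGFBP6. A match describes letters in the window and says nothing of a factor bound there. Only exact matches were counted, so the lack of a match does not show that close variants of a motif are absent.

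**Figure D4:**
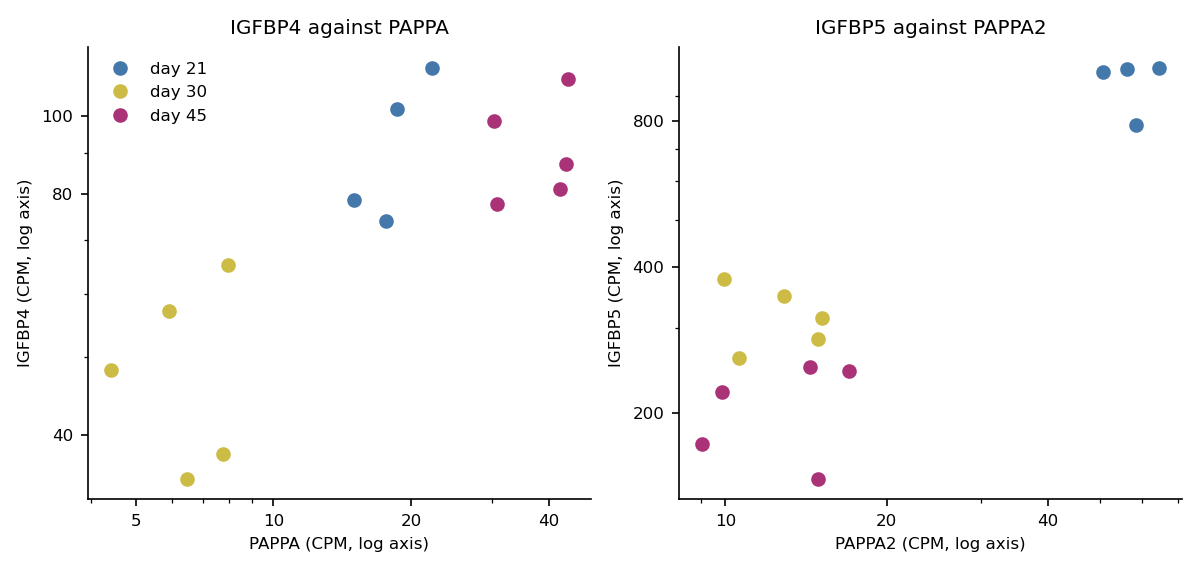
IGFBP4 against PAPPA (left) and IGFBP5 against PAPPA2 (right) in each library, in CPM on log axes, coloured by day. Day 30 sits low on both axes for PAPPA and IGFBP4, where days 21 and 45 share a range of IGFBP4, and day 21 sits high on both axes for PAPPA2 and IGFBP5.

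Within a day the first pair did not keep one order: at day 30 the library highest in IGFBP4 (65.2 CPM) was highest in PAPPA (7.96 CPM), while the lowest in IGFBP4 (35.3 CPM) held 6.46 CPM of PAPPA, more than 2 other libraries. Those 2 were day 30 replicates 3 and 4 (5.93 and 4.41 CPM), where long transcripts read low. PAPPA averages 10754 effective bases and IGFBP4 1988, and the part of length in that order was not tested. At day 21 only replicates 3 and 4 changed order, with 73.9 and 78.6 CPM of IGFBP4 and 17.6 and 14.96 CPM of PAPPA. Exons of PAPPA overlap PAPPA-AS1 on the other strand, which had 0 to 52.2 counts a library, beside at least 88.6 for PAPPA.

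The stanniocalcins STC1 and STC2, secreted inhibitors of both pappalysins, rose. STC2 had 27.5, 22.3, 3.28 and 4.34 CPM at day 21, 123, 185, 119.8, 121 and 79.6 CPM at day 30, and 375, 276, 249.5, 251.5 and 329 CPM at day 45. STC1 had 3.75, 2.89, 0.569 and 0.567 CPM at day 21, 7.39 to 9.72 CPM at day 30 and 6.48 to 11.1 CPM at day 45. In both genes day 21 replicates 1 and 2 were high and replicates 3 and 4 low, and the later days lay above all of them.

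STC2 was 20.6-fold higher at day 45 than at day 21 (log2 fold change 4.36 ± 0.59, adjusted p = 2.85e-05), and STC1 was 5.01-fold higher (2.32 ± 0.42, adjusted p = 2.17e-04). For day 30 against day 21 the changes were 3.13 ± 0.56 for STC2 (adjusted p = 3.84e-04) and 2.15 ± 0.42 for STC1 (adjusted p = 5.23e-04), and without day 30 replicates 3 to 5 they were 3.41 (adjusted p = 0.00523) and 2.255 (adjusted p = 0.0144). For day 45 against day 30, STC2 had 1.24 ± 0.47 (adjusted p = 0.0387), a call lost in 7 of the 14 fits that each left out 1 library, with adjusted p up to 0.0823, without day 30 replicates 3 to 5 (0.93, adjusted p = 0.352) and with day 45 replicate 1 placed at day 30 (0.73, adjusted p = 0.277). STC1 had 0.17 ± 0.36 (95% interval -0.60 to 0.94; adjusted p = 0.706). Summed in TPM, the stanniocalcins per pappalysin transcript were 0.442 ± 0.35 at day 21, 23.3 ± 7.25 at day 30 and 25.1 ± 2.54 at day 45.

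**Figure D5:**
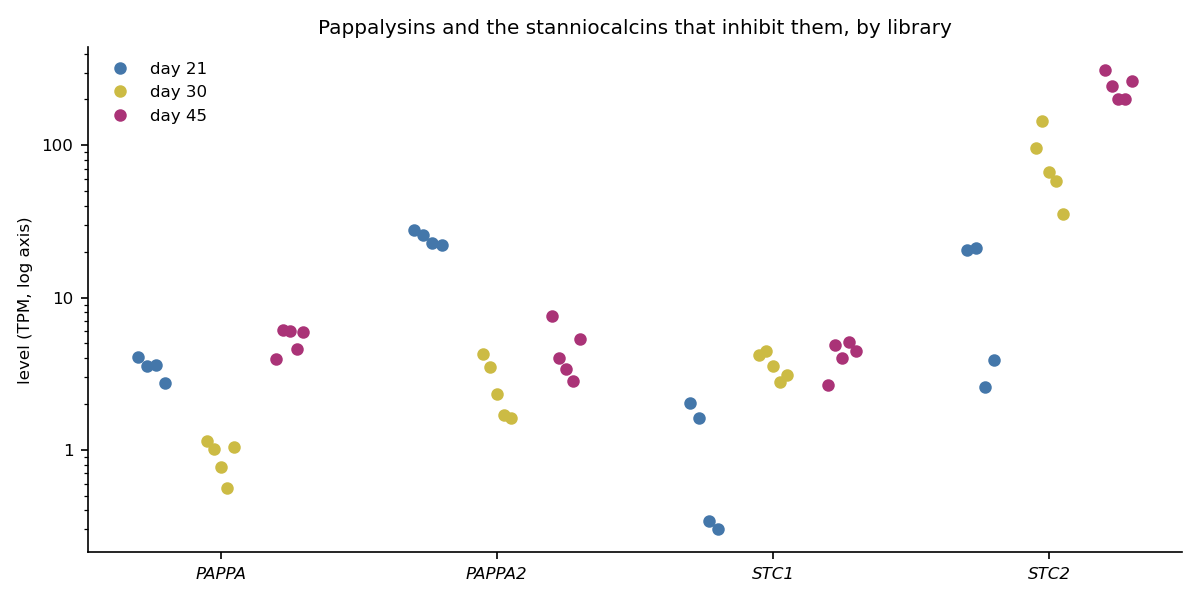
TPM of PAPPA, PAPPA2, STC1 and STC2 in each library on a log axis, coloured by day. STC2 lies below PAPPA2 in each day 21 library and above it in each later one, and PAPPA2 is the only gene of the 4 whose day 21 libraries are its highest.

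Other proteases that cut binding proteins were tested as a list with these inhibitors. Of its 9 genes, 7 were tested. For day 45 against day 21, 6 rose and 1 fell, beside 27.1% of all genes called higher and 30.5% lower. The median of the list was 1.42 on the log2 scale beside -0.05 over all genes. The gene that fell was HTRA1, a secreted serine protease of matrix and of IGFBP5, at -1.69 ± 0.13 (adjusted p = 7.76e-09). Its relative HTRA3 rose by 1.85 ± 0.14 (adjusted p = 7.73e-09), PRSS23 by 1.42 ± 0.16 (adjusted p = 8.55e-07) and CTSD, the lysosomal protease cathepsin D, by 1.03 ± 0.16 (adjusted p = 2.34e-05), or 0.94 with day 45 replicate 1 placed at day 30 (adjusted p = 0.0533). For day 30 against day 21, 3 rose, 1 fell and 3 did not pass, and without day 30 replicates 3 to 5, 4 rose, 2 fell and 1 did not pass. Over all genes 27.2% were called higher and 27.1% lower at that step with all libraries. In TPM, HTRA1 averaged 929 ± 86.5 at day 21, 587 ± 54.7 at day 30 and 210.1 ± 29.8 at day 45, so that at day 45 it stood at a level near that of IGFBP7, 171 ± 23.6 TPM.

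Downstream of the receptor, 14 adapters and regulators were tested. For day 45 against day 21, 8 rose, 2 fell and 4 did not pass, with a median of 0.33, while on the TPM scale 3 rose, 2 fell and 9 did not pass, with a median of -0.06. Over all genes 27.1% were called higher and 30.5% lower, with a median of -0.05, or -0.34 on the TPM scale. IRS1 and IRS2, the adapters that link the receptor to PI3K, rose by 1.19 ± 0.19 (adjusted p = 4.59e-05) and 0.77 ± 0.20 (adjusted p = 0.00322). The IRS2 call was lost on the TPM scale (0.25, adjusted p = 0.275 by limma) and with day 45 replicate 1 placed at day 30 (0.78, adjusted p = 0.0781). The phosphatases PTPN1 and PTPN11 rose by 0.59 ± 0.09 (adjusted p = 1.80e-05) and 0.85 ± 0.14 (adjusted p = 7.45e-05), of which PTPN1 lost its call on the TPM scale (0.15, adjusted p = 0.22 by limma), and IRS4, at or below 0.698 CPM in every library, fell. At day 30 against day 21, 2 rose and 7 fell, but 1 rose and 2 fell without day 30 replicates 3 to 5. Over all genes 27.2% were called higher and 27.1% lower at that step with all libraries.

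IRS2 had -0.74 ± 0.20 for day 30 against day 21 (adjusted p = 0.00552), which lost its call without day 30 replicates 3 to 5 (-0.38, adjusted p = 0.207) and with the length offset (-0.12, adjusted p = 0.508), and 1.51 ± 0.19 for day 45 against day 30 (adjusted p = 8.01e-06). IRS1 had 0.96 ± 0.19 for day 30 against day 21 (adjusted p = 4.15e-04) and 0.22 ± 0.17 for day 45 against day 30 (adjusted p = 0.286). It was at 139 and 126 CPM in day 30 replicates 1 and 2 and at 61.5 to 80.7 CPM in replicates 3 to 5, and without replicates 3 to 5 its changes were 1.42 (adjusted p = 4.11e-08) and -0.25 (adjusted p = 0.0556). With the length offset they were 1.61 (adjusted p = 3.67e-09) and -0.39 (adjusted p = 0.00369).

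Of 25 genes of PI3K, AKT and mTOR signalling, 11 rose, 4 fell and 10 did not pass for day 45 against day 21. Over all genes 27.1% were called higher and 30.5% lower, with a median of -0.05 beside 0.25 for this list. By adjusted p the leading genes of the list were PIK3R3, a regulatory subunit, at -1.74 ± 0.12 (adjusted p = 1.67e-09), PIK3CB, a catalytic subunit, at 1.40 ± 0.18 (adjusted p = 4.56e-06), the kinase AKT2 at 0.49 ± 0.08 (adjusted p = 6.49e-05) and RHEB, the activator of mTOR, at 0.61 ± 0.11 (adjusted p = 9.05e-05). On the TPM scale 3 rose and 11 fell, with AKT2 at -0.01 (adjusted p = 0.924 by limma) and RHEB at 0.11 (adjusted p = 0.61 by limma). The list median was -0.16 on that scale, beside -0.34 over all genes. The sign of the list median thus followed the scale, while it lay above the median of all genes on both scales.

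FOXO factors are held out of the nucleus by AKT, and a list joined FOXO factors and genes they induce. Of 15 tested, 11 rose, FOXO6 fell and 3 did not pass for day 45 against day 21, beside 27.1% of all genes called higher, with a median of 1.31, and the counts were the same on the TPM scale. GADD45A, a growth arrest gene, rose by 3.19 ± 0.12 (adjusted p = 3.88e-12), KLF15 by 4.21 ± 0.18 (adjusted p = 9.59e-12), TXNIP, an inhibitor of glucose uptake, by 2.72 ± 0.12 (adjusted p = 1.11e-11) and FOXO4 by 2.396 ± 0.16 (adjusted p = 1.67e-09). In CPM, GADD45A averaged 4.64 ± 0.684 at day 21, 16.8 ± 2 at day 30 and 42.2 ± 2.85 at day 45. Transcript levels do not show whether a FOXO factor is in the nucleus. Of 4 tested genes of the growth hormone axis, JAK2 rose by 1.62 ± 0.26 (adjusted p = 4.77e-05) and STAT5B by 0.46 ± 0.10 (adjusted p = 9.38e-04), though STAT5B had -0.17 on the TPM scale (adjusted p = 0.254 by limma), while GHR had 0.02 ± 0.16 (95% interval -0.31 to 0.35; adjusted p = 0.91).

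Genes whose pattern over the 14 libraries was most like each member were named by Pearson r of log2 CPM among about 9980 genes, as a description with no test, since the libraries fall into 3 days. IGF1R was most like MIA3 (r = 0.99) and MED13L (0.989), IGFBP2 like IL11RA (0.993) and ISYNA1 (0.982), IGF1 like FSTL5 (0.985) and GASK1B (0.978), and IGFBP5 like SBK1 (0.981) and FGFR1 (0.979). PAPPA was most like MAP1B (0.978) and DHX37 (0.975), and PAPPA2 like CNTN4 and KIF21B (0.984 each). IGFBP3 (JPH2, 0.933, and CDO1, 0.926), IGFBP4 (KIF1C, 0.941, and POMT2, 0.932) and IGFBP6 (PHF1, 0.958, and MORC4, 0.957) had less close partners, and IGFBP7 the least close (SELENOW, 0.873, and PRDX5, 0.863). Partners were near some members in mean effective length and far from others. MAP1B had 10064 bases beside 10754 for PAPPA, while DHX37 had 4137. MIA3 had 2663 and MED13L 6124 bases beside 11063 for IGF1R, and JPH2 had 6498 beside 2090 for IGFBP3. SELENOW and PRDX5 had 559 and 620 bases beside 1206 for IGFBP7. The part of length in these likenesses was not tested.

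Markers of other cell types also moved over these days. Tendon markers, 5 of 5 tested, summed to 578 to 808 CPM at day 21, 179 to 233 CPM at day 30 and 107 to 188 CPM at day 45. For day 45 against day 21, 4 of the 5 fell and THBS4 rose by 1.43 ± 0.35 (adjusted p = 0.00232), beside 30.5% of all genes called lower and 27.1% higher. For day 30 against day 21 TNMD did not pass (-0.19 ± 0.46, adjusted p = 0.743). Markers of fibrous tissue, 8 of 8 tested, were at 27400 to 29400, 21700 to 30900 and 24500 to 32900 CPM. Of these, THY1 (-2.04 ± 0.17, adjusted p = 2.68e-08) and PDGFRB (-1.12 ± 0.11, adjusted p = 2.12e-07) fell for day 45 against day 21, and 6 did not pass, beside 30.5% of all genes called lower. For day 30 against day 21, 4 fell and 4 did not pass, beside 27.1% of all genes called lower. For day 45 against day 30, 3 rose, 2 fell and 3 did not pass, beside 27.6% called higher and 28.7% lower. DPT (-1.25, then 1.15) and TWIST1 (-1.07, then 1.01) fell and then rose, while THY1 (-0.985, then -1.06) and PDGFRB (-0.41, then -0.70) fell at both steps. COL1A1, COL1A2 and COL3A1 did not pass at either step, and POSTN rose at the later step alone. Markers of hypertrophic chondrocytes, 6 of 7 tested, summed to 82.8 to 97.6, 368 to 485 and 1660 to 4200 CPM. All 6 rose for day 45 against day 21, beside 27.1% of all genes called higher. Endothelial markers, 2 of 5 tested, were at 23.9 to 32.3, 6.41 to 15.8 and 8.52 to 11.6 CPM, and 4 of the 5 averaged under 1 CPM at each day. Markers of muscle (24.4 to 93.8 CPM) and of neuron and glia (9.33 to 19.6 CPM) were low at all days, and those of pluripotent cells, 1 of 5 tested, summed to 13.2 to 16.8, 3.71 to 6.4 and 0.353 to 1.43 CPM. Of the liver list only 1 of 5 genes was tested, SERPINA1, which chondrocytes also express, and the list summed to 1.37 to 4.64, 21.3 to 35.7 and 74.3 to 149 CPM. The part of these cell types in the changes of the 10 genes was not tested.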

How the data were processed

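Per the labels' protocols, an RNeasy micro kit and a TruSeq RNA Library Prep Kit v2 gave the libraries. Per the submitters' processing notes, STAR 2.4.2a, RSEM 1.2.25 and GRCh38 were used. Which annotation was used is not given in those notes. Per the file headers, the authors deposited an expected count, a TPM value and an effective length for each gene and library. The expected counts were rounded for testing. A filter on low counts (filterByExpr, grouped by day) kept 17838 genes, among them all 10 members. Libraries were scaled by TMM, and day means were fitted jointly to the 14 libraries and tested by edgeR 4.0.16 (R 4.3.3) with robust quasi-likelihood fits, and an adjusted p below 0.05 over all genes tested was called. CPM was computed from the deposited expected counts. Shares, ratios and levels set between genes used the deposited TPM, and changes of single genes between days rest on CPM, with TPM as an alternative. No test was made on a score over several genes.

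Members and lists were chosen with earlier results of these data known. The text names the 10 members, 9 genes tied to them as other ligands, receptors, carriers, inhibitors or adapters, up to 4 genes of each signalling list by adjusted p for day 45 against day 21, genes whose exons overlap a member, and for each member the 2 genes with the highest Pearson correlation of log2 CPM (prior count 2). Alternatives were DESeq2 1.42.0 size factors and its Wald test, limma 3.58.1 on log2 of TPM plus 1 or 0.1 and with sample weights, other filters, a replicate block, each library left out, day 45 replicate 1 at day 30, no day 30 replicates 3 to 5, an offset for effective length, other dispersions and fits on the days compared. Leaving out day 45 replicate 1 and day 30 replicates 3 to 5 together was added after seeing the data. Same-numbered libraries of different days had correlations of -0.25 to 0.12 in 13 pairs, so numbers were not taken to pair samples. The edgeR step was tested on simulated data.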

Additional observations from a re-analysis of the deposited data

Results flagged for a closer look

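Among 30 groups of a member and a day, 3 held a library far from the others of its day, where chance flags about 1 in 20 groups. IGF1R was at 184 CPM in day 45 replicate 5, with 153 to 159 CPM in the other 4 libraries. IGFBP2 was at 68.6 CPM in day 45 replicate 2, with 44.0 to 47.8 CPM in the others. IGFBP5 was at 783 CPM in day 21 replicate 3, with 1009 to 1029 CPM in the others. Leaving out any of these libraries changed no call of that gene.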

How the results depend on the processing

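Of 550 alternative values for the 10 genes that did not leave out single libraries, 495 kept direction and side of the threshold, and of 560 that left out 1 library, 541 did. With 1 library left out, 8 to 9 genes were called for day 45 against day 21 and 6 to 7 for the later minus the earlier change. The replicate block gave 9, 8 and 8 called genes for day 45 against day 21, day 30 against day 21 and day 45 against day 30, and changed no call of the 10. Without day 30 replicates 3 to 5, and also without day 45 replicate 1, 5 genes were called for day 30 against day 21. With day 45 replicate 1 at day 30, 6466 genes of all those tested were called for day 45 against day 30.

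Some reversed signs were of changes near 0 and others of changes called in the main fit, and the cause was not tested. The called changes were IGF1R (-0.49) for day 30 against day 21 and IGFBP5 (0.98) for the later minus the earlier change. For day 45 against day 21 they were IGFBP7 (0.43), AKT2 (0.49) and STAT5B (0.46). Reversed values that passed themselves were IGF1R, PAPPA2 and IRS1 with the length offset (adjusted p = 0.00902, 0.0293 and 0.00369). IRS1 also passed with day 45 replicate 1 and day 30 replicates 3 to 5 left out. On the TPM scale the reversed signs were IGFBP7 (-0.03) for day 45 against day 21, IGFBP3 (-0.14 with either pseudocount) for day 30 against day 21, AKT2 (-0.013) and STAT5B (-0.17 and -0.18) for day 45 against day 21. With the length offset they were IGF1R (0.28) for day 30 against day 21, PAPPA2 (-0.40), IGFBP7 (0.067), STC1 (-0.047) and IRS1 (-0.394) for day 45 against day 30, and IGF1 (-0.26) and IGFBP5 (-0.043) for the later minus the earlier change. Without day 30 replicates 3 to 5 they were PAPPA2 (-0.22), IGFBP7 (0.12) and IRS1 (-0.249) for day 45 against day 30 and IGF1 (-0.50) for the difference of changes. With day 45 replicate 1 left out too they were -0.335, 0.032, -0.272 and -0.496. With that library at day 30 they were PAPPA2 (-0.16) for day 45 against day 30, and IGFBP3 (-0.29) and IGFBP6 (-0.41) for the difference. For IGFBP6 the difference was also -0.16 with sample weights and -0.012 with the CPM filter. Leaving out 1 library gave values of either sign, -0.111 to 0.106 for IGFBP4 in day 45 against day 21, -0.074 to 0.147 for PAPPA2 and -0.221 to 0.011 for IGFBP7 in day 45 against day 30, and -0.079 to 0.167 for IGFBP6 in the difference.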
